A study of Mus musculus with 2 samples.

Results

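Aminoacyl-tRNA synthetases, the enzymes that attach each amino acid to its tRNA, were followed in oocytes with and without *Kat8*. The members are 36 named synthetase genes, 20 cytosolic and 16 mitochondrial, found by symbol in a table of 18467 genes. Names ending in 2 were taken as mitochondrial. The series holds 1 library of each of 2 genotypes, both from oocytes of C57BL/6 mice aged 2 weeks. The conditional knockout (Kat8 Gdf9 cKO, genotype Gdf9-Cre;Kat8 fl/fl) carries loxP-flanked *Kat8* and Cre recombinase driven by the promoter of *Gdf9*, an oocyte gene, so that the other ovarian cells are not targeted. It was compared with wild type (WT) oocytes. The sources used here do not give the number of mice behind each library. With 1 library per genotype no difference has a replicate check, no test between genotypes was possible, and genotype and library cannot be told apart.

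Cytosolic synthetases charge tRNAs for translation on cytoplasmic ribosomes, whereas the mitochondrial enzymes, also made from nuclear genes, are imported to charge tRNAs for the few respiratory chain proteins that mitochondria translate. *Gars* and *Kars* each make the cytosolic and the mitochondrial enzyme from a single gene. *Eprs* makes a fused enzyme for glutamate and proline, and *Farsa* and *Farsb* make the subunits of the cytosolic phenylalanine enzyme. Several cytosolic synthetases are also known targets of ATF4, the transcription factor of the amino acid and integrated stress response. Growing oocytes store mRNA and mitochondria for the embryo, which makes both sets of enzymes part of their supply.

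Values are FPKM, in which a gene's fragments are divided by its length and by the size of the library, so that levels can be compared between genes. The log2 ratio is that of cKO over WT on the log2(FPKM + 0.1) scale, which understates changes of genes with low values. Calls of higher or lower are by size alone: a level of 1 FPKM in at least 1 library (the floor) and a log2 ratio of 1 or more, or of -1 or less. The FPKM columns summed to 562823 in the cKO and 666635 in the WT library. The number of fragments behind them is unknown. The lowest values put the FPKM worth of 1 fragment at 1.24 times as much in cKO as in WT. That is the most common ratio among 3503 genes above 0 and under 0.6 FPKM in both libraries, and 6.39% of them lay within 2% of it. If this rough estimate holds, low values are less precise in cKO. *Kat8* stood at 0.985 FPKM in the cKO and 166 FPKM in the WT library. The 12 oocyte markers summed to 21740 FPKM in the cKO and 26231 FPKM in the WT library. Of them 0 were called higher and 2, *Dppa3* and *Oosp1*, lower. Over all genes past the floor 18.2% were called higher and 12.2% lower. With TPM 1 marker was called lower, where 8.38% of all genes were. With the trend on transcript length and GC content removed 0 were called lower, where 12.7% of all genes were.

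Few synthetase genes, 3 of the 33 past the floor, passed the 2-fold rule. Of the 20 cytosolic genes, which all reached the floor, 0 were called higher and 1, *Lars*, was called lower. Of the 16 mitochondrial genes 13 reached the floor, and of these 2, *Ears2* and *Vars2*, were called higher and 0 lower. Across all 11816 genes past the floor, 18.2% were called higher, 12.2% lower and 30.4% in either direction, and on this scale each class held a smaller share of calls than that background. Of all calls 59.8% were higher, against 75.3% with TPM and 73.2% with library sizes without the 50 most abundant genes. Under both of these scalings 7 of the 16 mitochondrial members were called higher, a count over all members that takes in *Hars2*, which stayed under the floor. Over all genes past the floor 25.6% were called higher with TPM and 23.5% without the 50 most abundant genes. The share of the mitochondrial class was then above the background. With the trend on transcript length and GC content removed, 0 mitochondrial members were called, where 14.1% of all genes were called higher and 12.7% lower. The other 30 synthetases past the floor were not called.

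**Figure D1:**
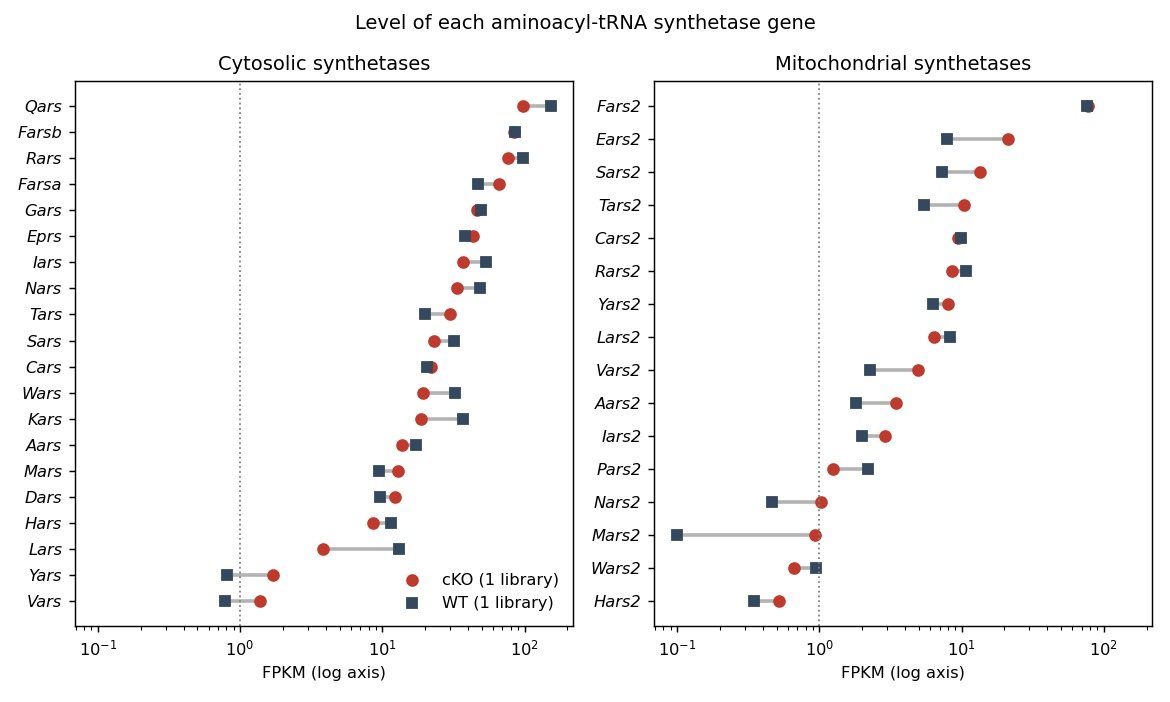
FPKM of each synthetase gene on a log axis, in the cKO library (circles) and the WT library (squares), with genes ordered by their cKO level. The dotted line is the floor of 1 FPKM; *Qars* and *Fars2* top the cytosolic and mitochondrial panels, and *Lars* and *Mars2* have the longest gaps between libraries.

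The cytosolic enzymes spanned a wide range of levels. *Qars*, the glutamine enzyme, was the most abundant, at 97.7 FPKM in the cKO and 152 FPKM in the WT library. It was followed in the cKO library by *Farsb* and *Rars*, which stood in the other order in WT: *Farsb* was at 84.6 FPKM in the cKO and 86.1 FPKM in the WT library, and the arginine enzyme gene *Rars* at 75.9 FPKM in the cKO and 97.7 FPKM in the WT library. *Farsa* stood at 66.0 FPKM in the cKO and 46.8 FPKM in the WT library. The subunits of the phenylalanine enzyme thus stood closer to each other in the cKO library, where *Farsb* was at 1.28 times the level of *Farsa*, against 1.84 times in the WT library. *Iars*, the isoleucine enzyme gene, stood at 37.0 FPKM in the cKO and 53.7 FPKM in the WT library. At the other end, the valine enzyme gene *Vars* stood at 1.37 FPKM in the cKO and 0.788 FPKM in the WT library, and the tyrosine enzyme gene *Yars* at 1.69 FPKM in the cKO and 0.810 FPKM in the WT library. Both reached the floor through the cKO library only, and in the WT library they were the only cytosolic members under 9 FPKM.

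*Lars*, the leucine enzyme gene (chromosome 18, 42202349 to 42262071, mm10), stood apart from the other cytosolic members. It was at 3.85 FPKM in the cKO and 13.2 FPKM in the WT library, 3.43-fold lower in the cKO (log2 ratio -1.75), and of all genes past the floor 3.33% had a lower ratio. It was called lower under every alternative tried. The authors' deposited table gave *Lars* a p-value of 0.0571 and a false discovery rate (FDR) of 0.408, in a test of the reads of these 2 libraries, not of the genotypes. The next lowest was *Kars*, the lysine enzyme gene, at 18.8 FPKM in the cKO and 37.0 FPKM in the WT library, whose log2 ratio of -0.97 lay just short of the rule. The tryptophan enzyme gene *Wars* stood at 19.4 FPKM in the cKO and 32.6 FPKM in the WT library (log2 ratio -0.75). *Qars*, at a log2 ratio of -0.64, had the largest difference in FPKM, with a deposited p-value of 0.0364 and an FDR of 0.288 in the authors' deposited table.

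Cytosolic members with positive ratios were the low *Yars* (log2 ratio 0.98, just short of the rule) and *Vars* (0.73), the threonine enzyme gene *Tars*, *Farsa*, *Mars*, *Dars*, *Eprs* and *Cars*. With the trend on transcript length and GC content removed, *Vars* was at -0.30, *Cars* at -0.21 and *Eprs* at -0.09, and the others stayed above 0. *Tars* stood at 30.2 FPKM in the cKO and 20.001 FPKM in the WT library, a log2 ratio of 0.59. *Farsa* had a log2 ratio of 0.49 and the second lowest FDR of any synthetase in the authors' deposited table, 0.0882. *Farsb* was the cytosolic member closest to no difference, at a log2 ratio of -0.03. In all, 8 cytosolic members had a ratio above 0 and 12 below it, with a median log2 ratio of -0.21, beside 0.06 over all genes past the floor. The sign of that median depended on the scaling: it was 0.04 with TPM, where the median of all genes was 0.33, and -0.23 with median-of-ratios scaling. It stayed below the median of all genes in each of these.

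**Figure D2:**
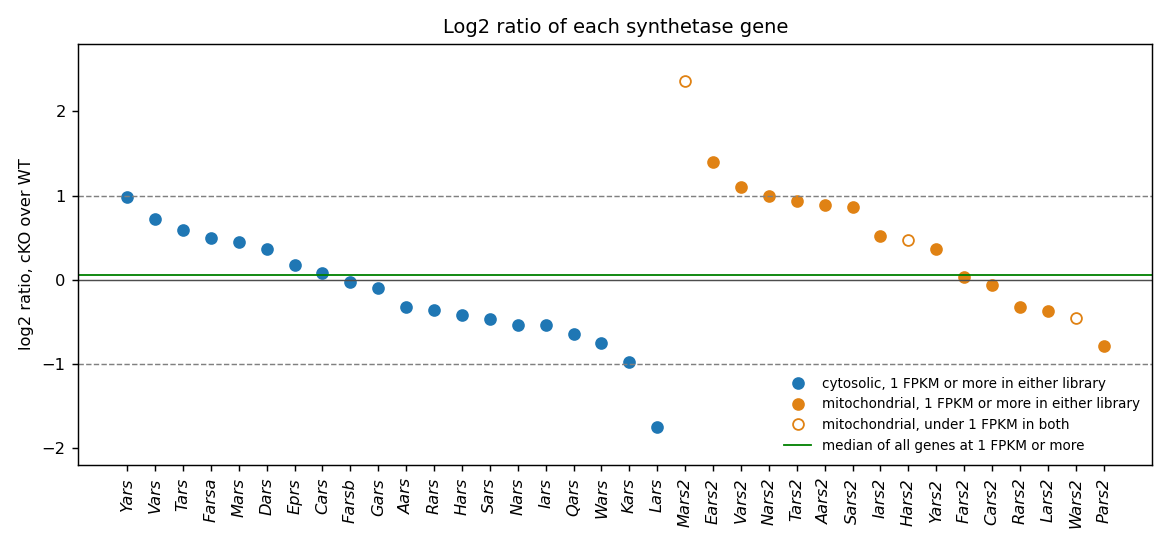
Log2 ratio of cKO over WT for each synthetase gene, cytosolic members at the left and mitochondrial members at the right, each ordered by ratio. Dashed lines mark the 2-fold rule and the green line the median of all genes past the floor (0.06); *Lars* lies below the lower dashed line and *Ears2* and *Vars2* above the upper one, while *Mars2* (open symbol) was under 1 FPKM in both libraries.

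The mitochondrial genes stood at lower levels. *Fars2*, the mitochondrial phenylalanine enzyme gene (chromosome 13, 36117411 to 36537593), was far above the rest of its class in both libraries, at 78.0 FPKM in the cKO and 75.9 FPKM in the WT library. With a log2 ratio of 0.04 it was also the mitochondrial member closest to no difference. It made up 45.5% of the summed FPKM of the mitochondrial class in the cKO and 53.5% in the WT library. The annotation shares 501 exonic bases of *Fars2* with *Nrn1* and 115 with *Lyrm4*, both on the other strand, so its level and the class sum are uncertain. The class summed to 171 FPKM in the cKO and 142 FPKM in the WT library, and without *Fars2* to 93.2 FPKM in the cKO and 66.0 FPKM in the WT library. The cytosolic class summed to 652 FPKM in the cKO and 778 FPKM in the WT library. The cytosolic sum was therefore 3.81 times the mitochondrial sum in the cKO library and 5.48 times in the WT library, a quotient that no scaling of a whole library can alter.

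*Ears2*, which charges glutamate in mitochondria (chromosome 7, 122038821 to 122067063), had the largest ratio of any synthetase past the floor. It stood at 21.1 FPKM in the cKO and 7.93 FPKM in the WT library, 2.66-fold higher in the cKO (log2 ratio 1.40). It was the only synthetase in the deposited lists of differing genes, with an FDR of 0.0388 in the authors' deposited table; those lists hold 2.71% of all genes as higher and 1.94% as lower. The annotation shares 89 exonic bases of *Ears2* with *Ubfd1* on the other strand, and strand-specific counting is not stated. After removal of the trend on transcript length and GC content its log2 ratio was 0.99, just under the rule. Mitochondria lack a glutamine enzyme of their own in mammals: *Ears2* also loads glutamate onto the glutamine tRNA, and an amidotransferase converts it. Of the genes of that amidotransferase, *Qrsl1* stood at 4.26 FPKM in the cKO and 2.45 FPKM in the WT library, and *Gatc* at 1.32 FPKM in the cKO and 2.35 FPKM in the WT library, neither past the rule.

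*Vars2*, the mitochondrial valine enzyme gene (chromosome 17, 35655635 to 35667592), stood at 4.94 FPKM in the cKO and 2.25 FPKM in the WT library, 2.19-fold higher in the cKO (log2 ratio 1.10). The annotation shares 465 exonic bases of *Vars2* with *Gm20483* on the other strand. Its call was lost with a pseudocount of 1 FPKM (log2 ratio 0.87), with a floor of 5 FPKM and with the length and GC trend removed (0.28). The authors' deposited table gave *Vars2* an FDR of 1. Just under the rule stood the asparagine enzyme gene *Nars2* (log2 ratio 0.99), which reached the floor through the cKO library only, at 1.03 FPKM in the cKO and 0.466 FPKM in the WT library. The threonine enzyme gene *Tars2* followed, at 10.5 FPKM in the cKO and 5.42 FPKM in the WT library (log2 ratio 0.94). *Sars2*, the serine enzyme gene, stood at 13.4 FPKM in the cKO and 7.33 FPKM in the WT library (log2 ratio 0.86). The alanine enzyme gene *Aars2* had a log2 ratio of 0.89 at lower levels, 3.46 FPKM in the cKO and 1.82 FPKM in the WT library. With the length and GC trend removed, the log2 ratio was 0.05 for *Aars2* and 0.31 for *Sars2*, but 0.83 for *Tars2* and 0.89 for *Nars2*. *Rars2*, the arginine enzyme gene, had a negative log2 ratio of -0.32, at 8.58 FPKM in the cKO and 10.7 FPKM in the WT library. The lowest ratio of the class was that of the proline enzyme gene *Pars2* (log2 ratio -0.78), at 1.24 FPKM in the cKO and 2.21 FPKM in the WT library. The members not yet given, *Cars2*, *Yars2*, *Lars2* and *Iars2*, had log2 ratios from -0.37 to 0.52.

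Over the 13 mitochondrial members past the floor, 9 had a ratio above 0 and 4 below it, with a median log2 ratio of 0.52; over all 16 members, with no floor, the median was 0.50, beside 0.12 for all genes in the table. Members near the floor weigh on this value: the median was 0.20 when the floor was set at 5 FPKM, and 0.23 when the length and GC trend was removed, against -0.08 for all genes. It was positive under every alternative tried. Under the floor in both libraries were *Mars2*, at 0.927 FPKM in the cKO and 0.0993 FPKM in the WT library, *Hars2*, at 0.519 FPKM in the cKO and 0.348 FPKM in the WT library, and *Wars2*, at 0.663 FPKM in the cKO and 0.942 FPKM in the WT library. The deposited FDR of *Mars2* was 1 in the authors' deposited table beside a 9.34-fold quotient of its values.

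Markers of other ovarian cells also differed between the libraries. Of 10 granulosa markers 9 were past the floor and 4 were called higher and 0 lower, with a sum of 109 FPKM in the cKO and 93.7 FPKM in the WT library. *Nr5a1*, which was called, and *Fshr*, which was not, reached the floor through the cKO library only. Of 7 theca and stroma markers 4 were past the floor and all 4 were called higher, having reached the floor through the cKO library only, and the list summed to 10.6 FPKM in the cKO and 2.10 FPKM in the WT library. None of these granulosa, theca and stroma markers was listed at 0. Over all genes past the floor, 18.2% were called higher and 12.2% lower. With a pseudocount of 1 FPKM, 3 granulosa and 2 theca and stroma markers were called higher, where 12.7% of all genes were. With a floor of 5 FPKM, 2 of 6 granulosa markers were called higher and 0 theca and stroma markers were past it. With TPM, 6 of each of these lists were called higher, where 25.6% of all genes were. Of 6 blood and endothelium markers 2 were past the floor and 1 was called lower, with a sum of 24.2 FPKM in the cKO and 61.9 FPKM in the WT library; *Ptprc*, a marker of white blood cells, was listed at 0 in WT. Their part in the synthetase differences was not tested, and in whole libraries fewer cells of a type and less RNA per cell cannot be told apart.

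Set side by side for the same amino acid, the mitochondrial gene more often had the larger ratio. Of the 16 amino acids with a member in each class, 13 had all members past the floor. In 9 of these 13 the mitochondrial gene had the larger log2 ratio and in 4 the cytosolic gene did. The pairs of asparagine, valine and tyrosine were among the 13 only because *Nars2*, *Vars* and *Yars* reached the floor in the cKO library. The median difference, cytosolic minus mitochondrial, was -0.37 on the log2 scale, the value of the valine pair. It was -0.37 with TPM and -0.35 with a floor of 5 FPKM. It was -0.72 with library sizes without the 50 most abundant genes, -0.63 with no floor and -0.58 with the length and GC trend removed. A factor common to a whole library nearly cancels within a pair. The set of pairs was not the same 13 under every setting. With TPM, without the 50 most abundant genes and with no floor, *Mars2* was counted too, and with TPM and with no floor *Wars2* as well. With a floor of 5 FPKM fewer pairs remained, without alanine, asparagine and valine among others. A close value under such a setting is therefore not a repeat over the same pairs. The genes of a pair are not replicates of the genotypes, and no test was made. Over all genes the ratio fell with level, taken as the larger FPKM of a gene. The median log2 ratio was 0.19 from 1 to below 5 FPKM and 0.13 from 5 to below 20. It was 0.01 from 20 to below 100 and -0.27 at 100 FPKM or more. Cytosolic members had a median of 22.6 FPKM in the cKO and 32.3 FPKM in the WT library. For mitochondrial members it was 5.69 FPKM in the cKO and 3.84 FPKM in the WT library. The part of level in the class difference was not tested.

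**Figure D3:**
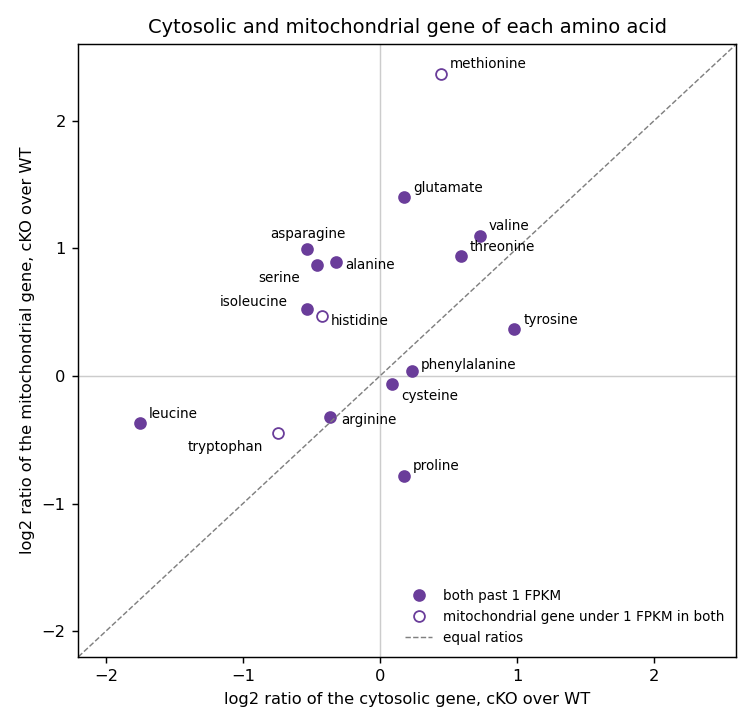
Log2 ratio of the mitochondrial gene against that of the cytosolic gene for each amino acid, with the mean of *Farsa* and *Farsb* for phenylalanine and *Eprs* used for glutamate and proline. Points above the dashed line (9 of the 13 filled points) had the larger ratio in the mitochondrial gene.

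The amino acids with the widest gaps were methionine, asparagine, leucine and serine. For methionine, *Mars* stood at 12.8 FPKM in the cKO and 9.41 FPKM in the WT library, 13.8 times *Mars2* in the cKO and 94.7 times in the WT library, although *Mars2* was under the floor in both. For asparagine, *Nars* stood at 33.5 FPKM in the cKO and 48.6 FPKM in the WT library, 32.6 times *Nars2* in the cKO and 104 times in the WT library. For leucine the order of the genes differed between libraries: *Lars2*, the mitochondrial gene, stood at 6.44 FPKM in the cKO and 8.36 FPKM in the WT library, so that *Lars* was at 0.598 times the level of *Lars2* in the cKO and 1.58 times in the WT library. For serine, *Sars* stood at 23.1 FPKM in the cKO and 31.9 FPKM in the WT library, 1.72 times *Sars2* in the cKO and 4.35 times in the WT library. The cytosolic gene had the higher level for 12 of the 16 amino acids in the cKO and 13 of 16 in the WT library. Phenylalanine, tyrosine and valine were the exceptions in both libraries: *Yars* was at 0.209 times *Yars2* in the cKO and 0.130 times in the WT library, and *Vars* at 0.277 times *Vars2* in the cKO and 0.350 times in the WT library.

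Enzymes of the multi-synthetase complex, a cytoplasmic assembly of synthetases held together by scaffold proteins, mostly had negative ratios, and 1 of them passed the rule. Of its 8 enzyme genes (*Eprs*, *Iars*, *Lars*, *Mars*, *Qars*, *Rars*, *Kars* and *Dars*) 1, *Lars*, was called lower and 0 higher. Over all genes past the floor, 12.2% were called lower and 18.2% higher, so the count lower was near the background. The 8 enzyme genes had a median log2 ratio of -0.45, with 5 of 8 below 0, beside 0.06 over all genes past the floor. They summed to 302 FPKM in the cKO and 411 FPKM in the WT library. The scaffold genes had negative ratios too. *Aimp1* stood at 42.3 FPKM in the cKO and 73.2 FPKM in the WT library (log2 ratio -0.79), *Eef1e1* at 27.4 FPKM in the cKO and 52.9 FPKM in the WT library (-0.95), and *Aimp2* at 53.5 FPKM in the cKO and 66.8 FPKM in the WT library (-0.32). The medians of both lists were below 0 under every scaling tried and after removal of the length and GC trend, the enzymes between -0.50 and -0.21 and the scaffolds between -0.82 and -0.40. No test sets these lists apart from other genes.

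The synthetases that ATF4 is known to activate did not stand out, although *Atf4* and several other genes of that response were high in the cKO library. *Atf4* stood at 755 FPKM in the cKO and 241 FPKM in the WT library, 3.13-fold higher in the cKO. Of 29 listed ATF4-pathway genes for amino acid supply and stress, 22 were past the floor, 8 were called higher and 0 lower, with a median log2 ratio of 0.59. Over all genes past the floor, 18.2% were called higher and 12.2% lower, with a median of 0.06. With TPM 12 of the listed genes were called higher and 0 lower, where 25.6% of all genes were called higher. After removal of the length and GC trend 5 were called higher and 1 lower, where 14.1% of all genes were called higher, and the median of the list was 0.30. *Chac1*, which degrades glutathione, stood at 11.0 FPKM in the cKO and 2.44 FPKM in the WT library, 4.51-fold higher, and *Sesn2*, a stress-induced inhibitor of mTORC1 signalling, at 3.01 FPKM in the cKO and 0.702 FPKM in the WT library. *Ddit4*, another inhibitor of that pathway, stood at 52.4 FPKM in the cKO and 15.9 FPKM in the WT library. *Sesn2*, which was called higher, and *Slc38a2*, which was not called, reached the floor through the cKO library only. Of the 13 cytosolic synthetases listed as ATF4-responsive, 0 were called higher and 1, *Lars*, lower. With TPM 1 was called higher. Their median log2 ratio was -0.09, or 0.15 with TPM where the median of all genes was 0.33. The 7 cytosolic synthetases not on that list had a median of -0.36, with 0 called. Asparagine synthetase (*Asns*), a much-used marker of the response, stood at 2.30 FPKM in the cKO and 2.18 FPKM in the WT library; it was named after its values were seen.

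**Figure D4:**
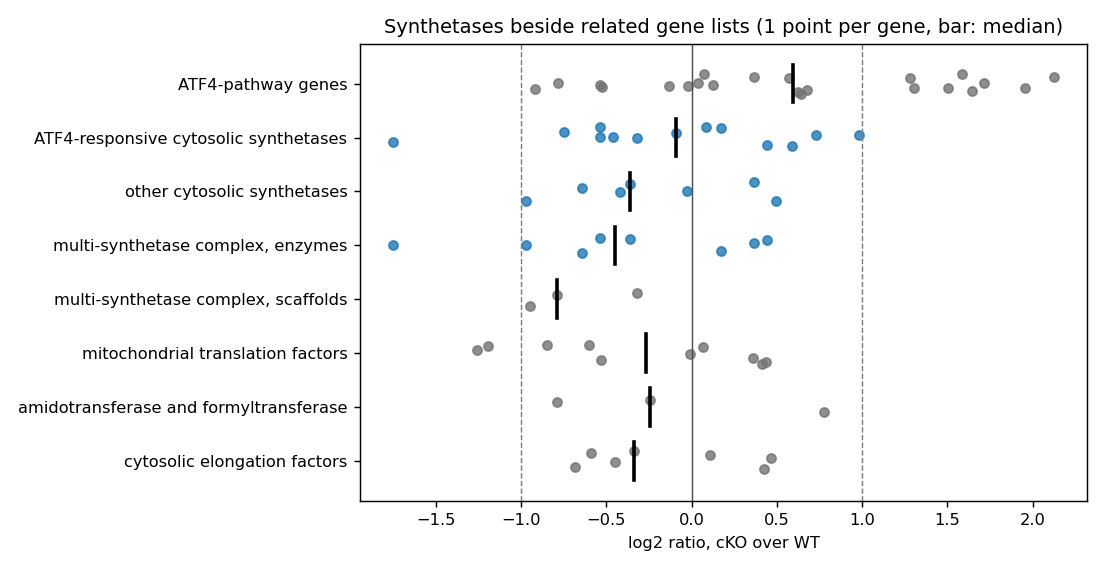
Log2 ratio of cKO over WT for each gene past the floor, by list, with synthetases in blue, other genes in grey and a bar at each list's median. The ATF4-pathway genes reach past the upper dashed line (2-fold) in 8 cases, whereas 0 of the 13 ATF4-responsive cytosolic synthetases do.

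Promoter sequence was set beside these values, since ATF4 acts through a C/EBP-ATF composite element in the promoters of its targets. RefSeq promoter windows (GRCm38.p6, the assembly of mm10; 250 bases before to 50 after the start) were matched for 27 of the 36 synthetases, which gave 28 windows. The element TGATGNAAT was searched on both strands and was found in 3 of the 28 windows, those of *Aars*, *Gars* and *Iars*, beside 0.965% of all 32851 windows. Of the 28 windows 13 were of cytosolic and 15 of mitochondrial genes. The cytosolic *Cars*, *Hars*, *Lars*, *Nars*, *Rars*, *Vars* and *Wars* and the mitochondrial *Hars2* and *Pars2* had no window and were not searched. All 3 genes found with the element are cytosolic. None of the 3 was called: *Iars* is given above, *Aars*, the alanine enzyme gene, stood at 13.8 FPKM in the cKO and 17.3 FPKM in the WT library, and *Gars*, the glycine enzyme gene, at 46.2 FPKM in the cKO and 49.3 FPKM in the WT library. The windows are shown because they hold the element, and that of *Ears2* because it is the synthetase with the largest ratio past the floor. Each is given 5′ to 3′ on the strand of the gene, from 250 bases before to 20 bases after the start.
*Aars*, chr8:111033592-111033861, plus strand: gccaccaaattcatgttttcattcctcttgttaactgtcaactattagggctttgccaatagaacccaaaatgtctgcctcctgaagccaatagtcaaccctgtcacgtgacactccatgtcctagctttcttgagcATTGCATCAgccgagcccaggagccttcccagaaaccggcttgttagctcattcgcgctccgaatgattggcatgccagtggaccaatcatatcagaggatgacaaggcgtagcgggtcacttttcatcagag
*Gars*, chr6:55037751-55038020, plus strand: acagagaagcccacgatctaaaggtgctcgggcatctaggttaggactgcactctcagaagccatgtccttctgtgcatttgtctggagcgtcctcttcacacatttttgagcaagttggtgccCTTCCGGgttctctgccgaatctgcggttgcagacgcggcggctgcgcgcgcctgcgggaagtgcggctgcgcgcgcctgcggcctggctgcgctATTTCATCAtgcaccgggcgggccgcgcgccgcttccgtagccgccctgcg
*Iars*, chr13:49681880-49682149, plus strand: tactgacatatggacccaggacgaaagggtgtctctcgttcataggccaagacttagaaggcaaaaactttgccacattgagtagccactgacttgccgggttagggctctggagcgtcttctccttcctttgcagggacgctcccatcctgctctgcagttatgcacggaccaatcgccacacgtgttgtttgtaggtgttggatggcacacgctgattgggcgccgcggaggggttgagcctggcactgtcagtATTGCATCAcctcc
*Ears2*, chr7:122067067-122067336, minus strand: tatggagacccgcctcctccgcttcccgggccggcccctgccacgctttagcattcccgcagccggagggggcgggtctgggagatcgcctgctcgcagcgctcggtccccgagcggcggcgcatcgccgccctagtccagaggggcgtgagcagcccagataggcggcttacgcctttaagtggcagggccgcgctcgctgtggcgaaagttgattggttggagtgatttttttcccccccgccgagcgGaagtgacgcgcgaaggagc
Capitals mark motif matches, and in *Ears2*, which held none, the first transcribed base. In all 3 genes the element reads in the reverse orientation, as ATTGCATCA in *Aars*, where it begins at -113 from the start, as ATTTCATCA in *Gars* at -31, and as ATTGCATCA in *Iars* at base 7 of the transcript. *Gars* also holds CTTCCGG at -126, the reverse of the ETS family motif CCGGAAG.

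The ETS motif CCGGAAG was found on either strand in 9 of the 28 windows, beside 8.86% of all windows. These were the cytosolic *Farsa*, *Gars*, *Kars*, *Mars* and *Sars* and the mitochondrial *Cars2*, *Mars2*, *Rars2* and *Sars2*. Their ratios went both ways, from *Kars* at -0.97 to *Mars2* at 2.37. The palindromic motif of NRF1, a transcription factor of many genes for mitochondrial proteins, was in 0 of the 28 windows and in 0.971% of all windows. The motifs of *Gars*, the only window with more than 1, did not overlap. A match is a description of the sequence, and its absence says only that these letters are not in the window.

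Genes that act beside the mitochondrial synthetases did not share their positive median. Of 10 mitochondrial translation factor genes past the floor, 2 were called lower and 0 higher. Over all genes past the floor, 12.2% were called lower and 18.2% higher. The median log2 ratio of these 10 genes was -0.27, beside 0.06 over all genes past the floor. With TPM 1 of the translation factor genes was called lower, where 8.38% of all genes were. *Tufm*, the elongation factor that brings charged tRNA to the mitochondrial ribosome, stood at 13.9 FPKM in the cKO and 33.4 FPKM in the WT library, 2.40-fold lower in the cKO. *Mrrf*, the ribosome recycling factor, stood at 5.58 FPKM in the cKO and 12.9 FPKM in the WT library. *Mtfmt*, which formylates the methionine of the mitochondrial initiator tRNA, stood at 7.93 FPKM in the cKO and 9.39 FPKM in the WT library. Of 7 cytosolic elongation factor genes past the floor 0 were called, and *Eef1a1*, which brings charged tRNA to the cytoplasmic ribosome, stood at 340 FPKM in the cKO and 547 FPKM in the WT library. *Mtfmt* and *Eef1a1* were named after their values were seen.

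Transcript length moved with the ratio over all genes and is given beside the synthetases for that reason. The median log2 ratio of all genes past the floor was -0.58 for transcripts under 1000 bases and 0.24 for those of 4000 bases or more. The cytosolic members had a median transcript length of 2870 bases and the mitochondrial members past the floor one of 3046 bases, and 0 synthetases were under 1000 bases. Once that trend and the one on GC content were removed, the class medians were -0.26 for the cytosolic and 0.23 for the mitochondrial class.

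**Figure D5:**
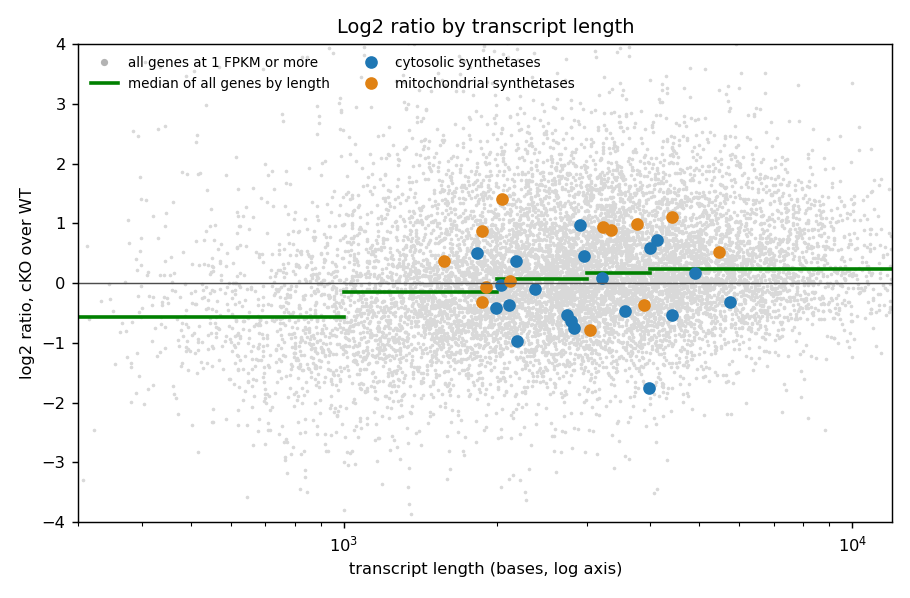
Log2 ratio of cKO over WT against transcript length (log axis) for all genes past the floor (grey), cytosolic synthetases (blue) and mitochondrial synthetases (orange); genes beyond the axes are not drawn. Green lines are medians of all genes in 5 ranges of length, which run from -0.58 for the shortest transcripts to 0.24 for the longest, and 6 synthetases lie between 1000 and 2000 bases and the other 27 above.

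For 13 synthetases the annotation shares exonic bases with another gene. *Mars* shares 68 with *Ddit3* on the other strand, a stress gene at 128 FPKM in the cKO and 130 FPKM in the WT library, *Iars2* shares 2034 with *Rab3gap2* on the other strand, *Aars* shares 1326 with *Exosc6* on its own strand, and *Hars* and *Hars2* share 195. Reads from these stretches may count for either gene, so the values of these members are uncertain.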

How the data were processed

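RNA of oocytes was extracted with Trizol and made into libraries with a TruSeq RNA kit, per the labels' protocols. The submitters' processing notes name Bowtie 0.12.2 and mm10; counting, annotation and the test behind the p-values are not given in the sources used here. The authors deposited FPKM, a linear fold change (ratio of the FPKM columns), a p-value and an FDR per gene, per the file headers. Values deposited as 1e-05 were read as 0. Of the value columns, KO was assigned to the cKO and NC, by elimination, to WT. The headers of the locus and description columns are exchanged, and the deposited start was moved by 1 base to count from 1.

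Log2 ratios used a pseudocount of 0.1 FPKM. The 36 members, the related lists and the rules were chosen with earlier results of these data known. All synthetases could be named; full values go to called members, the 5 most abundant and the member nearest 0 of each class, the 4 amino acids with the widest gaps, and up to 4 called genes of each list. Transcript length and GC content came from GENCODE M21 (GRCm38), matched for 96.5% of genes past the floor, and the trend was a least-squares fit of natural splines with 4 degrees of freedom each. The ratio, scaling and trend steps were tested on simulated data. Python 3.11.15, pandas 2.3.3, numpy 2.4.6 and patsy 1.0.2 were used. Scaling, pseudocount, floor, fold and membership were varied.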

Additional observations from a re-analysis of the deposited data

How the results depend on the processing

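No paired analysis was possible because each genotype has 1 library. Scaling moved every ratio: the median log2 ratio of all genes past the floor was 0.06, against 0.33 with TPM and 0.28 with library sizes without the 50 most abundant genes, and the share of higher among called genes was 59.8%, against 75.3% and 73.2%. With these 2 scalings the cytosolic median was 0.0361 (reversed in sign) and -0.0012, the mitochondrial median 0.77 and 0.90, and the mitochondrial genes called higher numbered 7 and 7 in place of 2, where 25.6% and 23.5% of all genes were called higher in place of 18.2%, with 1 cytosolic gene called higher in each in place of 0. With TPM the log2 ratios of the class sums were -0.0102 for cytosolic and 0.51 for mitochondrial genes, in place of -0.25 and 0.27. With a pseudocount of 0.01 FPKM 1 cytosolic gene was called higher, where 18.9% of all genes were. With one of 1 FPKM the mitochondrial median was 0.38 and 1 mitochondrial gene was called higher, where 12.7% of all genes were. With a floor of 5 FPKM the medians were -0.34 for cytosolic and 0.20 for mitochondrial genes, with 1 mitochondrial gene called higher, where 15.5% of all genes were. With the length and GC trend removed 2 cytosolic genes were called lower and 0 mitochondrial genes higher. Of all genes 12.7% were then called lower and 14.1% higher. The mitochondrial median was 0.23, and the added cytosolic call was *Aars* (-1.02), for a transcript of 5750 bases. At 1.5-fold, 3 cytosolic genes were higher and 4 lower, and 6 mitochondrial genes were higher and 1 lower. Over all genes past the floor 29.1% were then higher and 23.2% lower. The median difference within amino acids, -0.37, was -0.37 with TPM and -0.35 with a floor of 5 FPKM. It was -0.63 with no floor, -0.72 without the 50 most abundant genes and -0.58 with the trend removed. All of these alternatives but the removal of the trend came with a changed set of pairs. Of 288 values of single synthetases under alternatives, 268 kept their status, 4 lost a call and 16 gained one. Most of the 268 were of members not called at the start, which had no call to lose. Changes of sign were counted for called members only, and there were 0. Members not called did change sign: *Vars* went from 0.73 to -0.30 with the trend removed, and *Gars* from -0.09 to 0.15 with TPM. The causes were not tested. Depth is unknown and limits the members near 1 FPKM.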

Other observations

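Of 31 listed genes for the processing, modification and quality control of tRNA past the floor, 5 were called higher and 5 lower in cKO oocytes, near the background of 18.2% higher and 12.2% lower. Their median log2 ratio was -0.01, a value that was positive with TPM (0.25, where the median of all genes was 0.33). *Pop4*, a subunit gene of RNase P, which trims the 5′ end of tRNA precursors, stood at 5.31 FPKM in the cKO and 52.2 FPKM in the WT library, 9.83-fold lower in the cKO. *Rpp25*, another subunit gene, stood at 1.85 FPKM in the cKO and was listed at 0 in the WT library. *Tsen15*, of the tRNA splicing endonuclease, stood at 7.19 FPKM in the cKO and 1.96 FPKM in the WT library, 3.66-fold higher in the cKO. *Dtd1*, which removes D-amino acids from tRNA, stood at 1.97 FPKM in the cKO and 6.70 FPKM in the WT library, 3.41-fold lower.

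Of 9 listed genes around the initiation factor eIF2 alpha, its kinases and its phosphatase, upstream of *Atf4*, 8 were past the floor. Of these 1 was called higher and 0 lower, where 18.2% of all genes were called higher and 12.2% lower. The list had a median log2 ratio of -0.24. The 1 called was the kinase gene *Eif2ak3* (PERK), at 5.78 FPKM in the cKO and 1.36 FPKM in the WT library, 4.27-fold higher. The kinase gene *Eif2ak1* stood at 22.6 FPKM in the cKO and 35.4 FPKM in the WT library, and *Eif2ak2* was under the floor in both. *Eif2ak4* (GCN2), which senses uncharged tRNA, stood at 8.38 FPKM in the cKO and 15.01 FPKM in the WT library, within the 2-fold rule. *Eif2ak1*, *Eif2ak2* and *Eif2ak4* were named after their values were seen.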
